A study of Macaca fascicularis with 64 samples.

Results

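The immediate-early genes FOS, FOSB, JUN, JUNB, EGR1, ATF3 and IER2 and the 3 members of the NR4A family, NR4A1, NR4A2 and NR4A3, were followed across the endocrine cell types of the pancreatic islet. These 10 genes were taken by name. 9 of them have a row among the 21041 macaque genes of the count tables, and JUN was not analysed here. The cells came from islets of 16 cynomolgus monkeys (Macaca fascicularis), in 4 groups of 4 animals each: young females, young males, old females and old males, where young stands for 4 to 6 years and old for 18 to 21 years. The labels name no treatment or genotype for any animal. Each monkey gave 4 libraries of up to 96 hand-picked cells, 64 libraries in all, made with a tag-counting protocol in which a unique molecular identifier (UMI) marks each captured RNA molecule. Monkeys are written here by age (Y or O), sex (F or M) and number, so that OM4 is the fourth old male.

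Immediate-early genes are switched on within minutes of a stimulus without new protein synthesis, because the factors that bind their promoters, such as SRF with its partners and CREB, are already present and need only be phosphorylated through MAP kinase, calcium and cAMP signalling. FOS, FOSB and JUNB are subunits of the dimeric transcription factor AP-1, EGR1 is a zinc-finger factor, ATF3 is a stress-inducible bZIP factor, and IER2 is a small nuclear protein. The NR4A genes encode orphan nuclear receptors that are induced in the same fast way and, in islets, respond to glucose, cAMP and depolarisation. Transcripts of this class are short-lived, and enzymatic dissociation of tissue is itself known to induce them. All cells here had passed a collagenase digestion before they were picked, and undigested tissue was not measured.

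Of 6141 cells in the tables, 5908 had over 800 genes and over 10000 UMIs. Each was assigned to the type of its highest hormone transcript, which gave 4503 α-cells (GCG), 1219 β-cells (INS), 112 δ-cells (SST) and 74 PP-cells (PPY). Of the fixed markers of each type found in the tables, 10 of 11 α-cell, 11 of 13 β-cell, 7 of 8 δ-cell and 5 of 7 PP-cell markers were highest in their own type; the exceptions were LOXL4, PCSK1 and ADCYAP1, BCHE, and AQP3 and MEIS2. Between 338 and 381 cells per monkey were retained, with 2.07e+07 to 3.41e+07 gene UMIs per monkey. Levels are given as CPM (the UMIs of a gene per 1000000 gene UMIs) from the sum of a monkey's cells of a type, where at least 5 such cells were present. This held for α- and β-cells in 16 monkeys, for δ-cells in 11 and for PP-cells in 6. The median UMI count per cell was 64894 in α-, 74425 in β-, 43776 in δ- and 45772.5 in PP-cells, and the share of spike-in UMIs was 5.57%, 4.68%, 8.20% and 7.22%. Each monkey was collected on its own day, so monkey and day cannot be told apart. In sums over cells, fewer expressing cells and less RNA per cell cannot be told apart either, and shares of cells with a UMI are therefore given beside the levels.

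The first question was in which endocrine type these genes were highest. FOS, EGR1, NR4A1, NR4A2 and FOSB were lower in β-cells than in α-cells in 16 of 16 monkeys, with a median level in β-cells between 0.138 (NR4A2) and 0.261 (EGR1) of that in the α-cells of the same animal. All 9 genes tested passed the test for a lower level in β-cells, against 18.1% of the 14648 genes tested. δ-cells stood between α- and β-cells for most of these genes. In PP-cells FOS and EGR1 were above the α-cells of the same animal in 5 of 6 monkeys, and FOSB, above in 6 of 6, was the one gene of the 9 that passed the test for a higher level in PP- than in α-cells.

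FOS, the AP-1 subunit with the most UMIs of these genes, ranged over monkeys from 407 to 2131 CPM in α-cells with a median of 1321. In β-cells it ranged from 85.9 to 472 CPM with a median of 257. In δ-cells the range was 270 to 2085 CPM (median 795), and in PP-cells 777 to 3033 CPM (median 1901). The α- and β-cell ranges overlapped only between the lowest α-cell and the highest β-cell monkeys, whereas the PP-cell range lay wholly above the β-cell range. The log2 difference between β- and α-cells was -2.27 (SE 0.17, edgeR quasi-likelihood test with monkey as a block, Benjamini-Hochberg adjusted p = 6.96e-16), a 4.83-fold lower level. After each cell was thinned to 10000 UMIs, FOS was found in 94.2% of α-cells (4203 of 4464), 73.8% of β-cells (895 of 1213), 92.0% of δ-cells (103 of 112) and 100% of PP-cells (74 of 74). Before thinning the shares were 99.2%, 97.8%, 98.2% and 100%. Shares so close to 100% say little about which cells expressed FOS, and the part of RNA passed between cells was not tested.

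FOSB, a paralogue of FOS that also forms AP-1 dimers, varied 44.0-fold between the lowest and the highest monkey in α-cells and 22.9-fold in β-cells, but 3.29-fold in PP-cells. It ranged from 5.98 to 263 CPM in α-cells (median 94.8), from 3.16 to 72.3 CPM in β-cells (median 14.0) and from 4.25 to 207 CPM in δ-cells (median 43.6). In PP-cells its level was 629 CPM in OF1, 614 in OF2, 268 in OM2, 444 in OM4, 479 in YM1 and 191 in YM4. The PP-cells of each of these 6 monkeys were above the α-cells of the same monkey, which held 53.9, 172, 26.7, 256, 74.3 and 47.2 CPM in that order. The ratio of PP- to α-cells was 1.74 to 11.7 with a median of 5.25, and the log2 difference was 2.51 (SE 0.37, edgeR adjusted p = 4.82e-06). FOSB remained called in 25 of 25 alternative settings, with log2 differences from 2.10 to 2.89. Thinned to 10000 UMIs, 75.7% of PP-cells held a FOSB UMI (56 of 74), against 38.6% of α-cells, 26.8% of δ-cells and 12.9% of β-cells, and the unthinned shares were 87.8%, 67.1%, 50.0% and 48.2%.

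EGR1, an early zinc-finger factor that binds GC-rich promoters, ranged from 179 to 1369 CPM in α-cells (median 776) and from 52.5 to 496 CPM in β-cells (median 195). It ranged from 82.9 to 1099 CPM in δ-cells (median 680) and from 623 to 1937 CPM in PP-cells (median 1166). As for FOS, the PP- and β-cell ranges did not overlap. The log2 difference between β- and α-cells was -1.99 (SE 0.18, edgeR adjusted p = 5.23e-13). ATF3, the stress-inducible factor, was lower and more scattered, at 2.21 to 82.1 CPM in α-cells (median 26.8), 0.225 to 16.2 CPM in β-cells (median 5.45), 0 to 90.4 CPM in δ-cells (median 4.72) and 5.38 to 276 CPM in PP-cells (median 101). It was lower in β-cells in 15 of 16 monkeys, with a log2 difference of -2.35 (SE 0.46, edgeR adjusted p = 6.81e-05). That call was lost when log values per cell were averaged and tested with limma (adjusted p = 0.0737).

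NR4A1, known as Nur77, was lower in β- than in α-cells in 16 of 16 monkeys and lower in δ- than in α-cells in 11 of 11. It ranged from 246 to 1418 CPM in α-cells (median 761), from 69.8 to 309 CPM in β-cells (median 139), from 72.6 to 664 CPM in δ-cells (median 280) and from 379 to 1432 CPM in PP-cells (median 707). Its ratio of β- to α-cells lay between 0.130 and 0.316 in the 16 monkeys. The log2 difference between β- and α-cells was -2.32 (SE 0.13, edgeR adjusted p = 6.88e-20). PP- and α-cells differed by -0.01 (SE 0.19, edgeR adjusted p = 0.992), with 3 of 6 monkeys higher and 3 lower.

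NR4A2, known as Nurr1, ranged from 51.2 to 405 CPM in α-cells (median 158), from 7.27 to 55.0 CPM in β-cells (median 21.9), from 22.6 to 220 CPM in δ-cells (median 80.0) and from 123 to 430 CPM in PP-cells (median 212). Its β-cell level was 0.0790 to 0.185 of the α-cell level over the 16 monkeys, and the log2 difference was -3.01 (SE 0.21, edgeR adjusted p = 1.86e-16). A NR4A2 UMI was found in 46.8% of thinned α-cells, 18.4% of β-cells, 38.4% of δ-cells and 44.6% of PP-cells, and in 76.7%, 61.3%, 63.4% and 70.3% before thinning. The PP-cell median over 6 monkeys was above the α-cell median over 16, but within the same monkeys the PP-cells were lower in 4 of 6, with a median ratio of 0.855 (0.771 to 3.41).

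JUNB, NR4A3 and IER2 had few UMIs. JUNB, an AP-1 subunit, had medians of 9.81 CPM in α-, 2.47 in β-, 8.69 in δ- and 8.45 in PP-cells, with a log2 difference of -1.97 between β- and α-cells (SE 0.46, edgeR adjusted p = 0.000763). NR4A3 ranged from 1.33 to 12.5 CPM in α-cells (median 3.93) and had a median of 0 in the other types. Its β- to α-cell difference was -4.81 on the log2 scale (SE 0.63, edgeR adjusted p = 5.60e-08) from 47 UMIs in β-cells and 1353 in α-cells. It was not found in 74 PP-cells, which allows a share of up to 4.05% of cells with a UMI. An exact 95% interval for that share reached 4.86%. The share in α-cells, 4.77% (215 of 4503) and 2.31% after thinning, lay inside this interval. A floor of 3 counts over the PP-cells is 0.780 CPM, and the pooled 4.19 CPM of α-cells was 5.38-fold above it. That floor takes UMIs as independent, although 174 of 194 NR4A3 UMIs in the α-cells of OF2 came from 1 cell. It therefore sets no firm limit on the PP-cell level. IER2 had 132 UMIs in α-cells, 3 in β-cells, 0 in δ-cells (0 of 112 cells, which allows up to 2.68%) and 9 in PP-cells, 8 of these from 1 cell of OM2. The call of IER2 as lower in β-cells (edgeR adjusted p = 0.0258) was lost with DESeq2 (adjusted p = 0.509), with limma on log values and without OF4, YF4 or YM2 (adjusted p = 0.0556, 0.0678 and 0.0591).

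**Figure D1:**
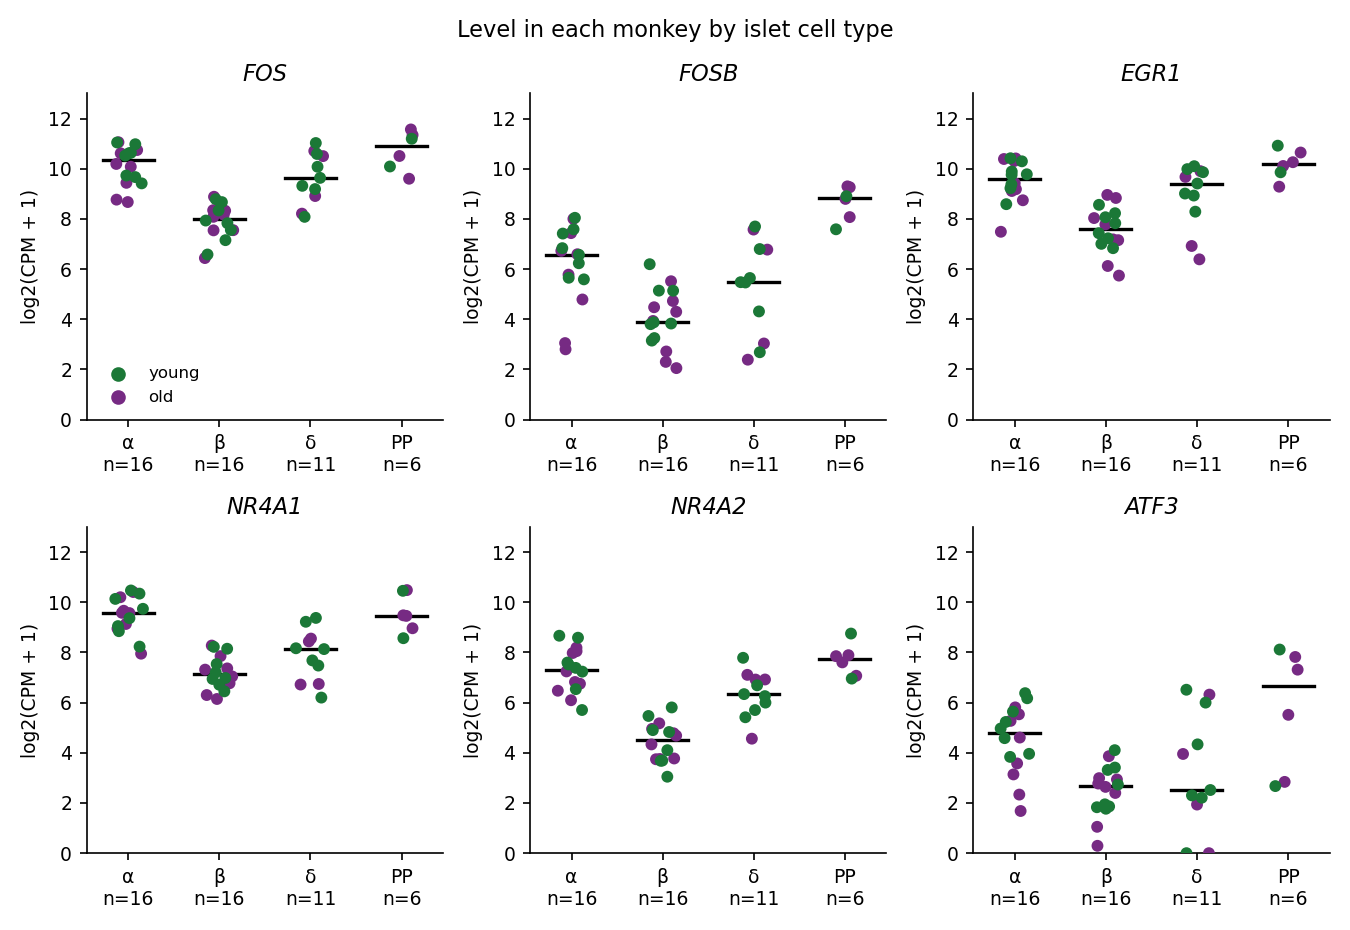
Level of 6 of the genes in each monkey as log2(CPM + 1), by islet cell type, where each point is a monkey with at least 5 cells of the type, colours give the age group and black bars the median. β-cells have the lowest median for all but ATF3, and FOSB is the gene whose PP-cell points stand highest over its α-cell points (medians of 462 and 94.8 CPM).

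Hormone RNA and other abundant transcripts pass between cells during dissociation, so the β- to α-cell ratios were set beside those of α-cell markers. GCG itself was found in β-cells at a median of 0.277 of its α-cell level and TTR at 0.457. Several less abundant α-cell markers had lower ratios, such as 0.0770 for IRX2, 0.0887 for TSPAN12, 0.0918 for GC, 0.0656 for FEV and 0.146 for TM4SF4. SLC7A2 (0.312) and LOXL4 (0.292), also less abundant, had higher ratios than GCG, and ARRDC4 stood at 0.216. The median of the 11 markers was 0.146. The ratios of FOS (0.219), NR4A1 (0.211), FOSB (0.182) and NR4A2 (0.138) lay among those of the markers. In PP-cells (6 monkeys) the median ratio of the 11 markers to α-cells was higher, at 0.479, from 0 for PLCE1 to 1.34 for LOXL4, with GCG at 0.419. In δ-cells (11 monkeys) it was 0.111, with GCG at 0.316. How much of the β-, δ- or PP-cell level of each gene came from such RNA was not tested, nor was its part in the likeness of PP- to α-cells.

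**Figure D2:**
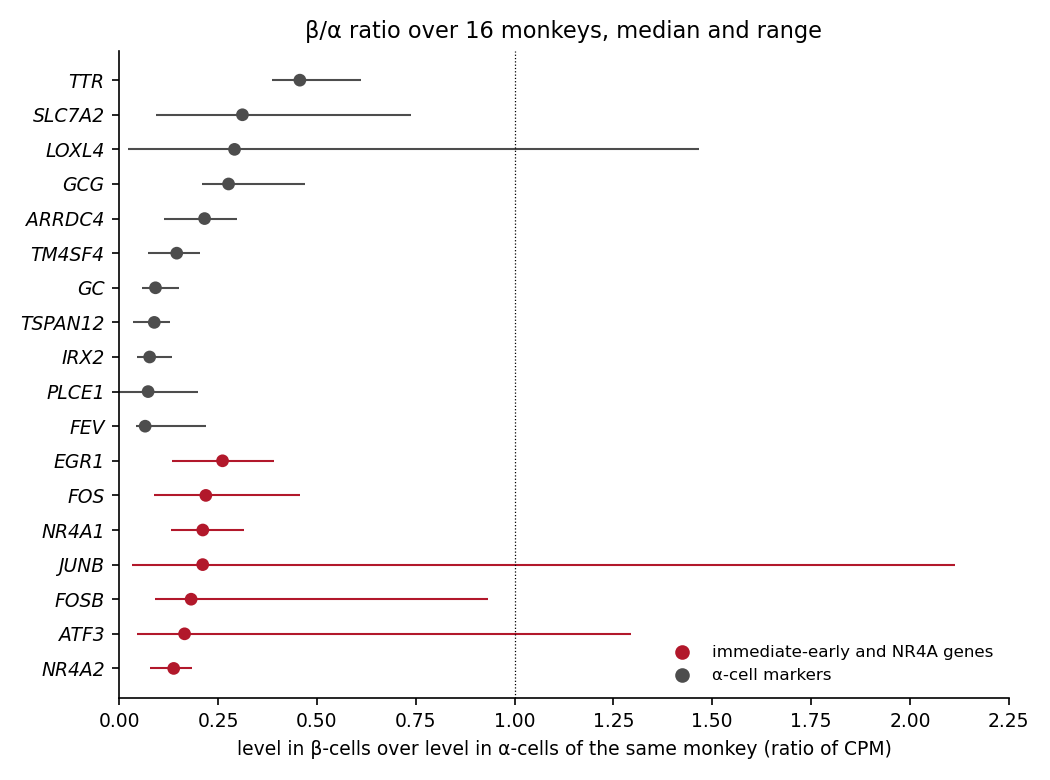
Ratio of the CPM in β-cells to that in α-cells of the same monkey, as the median (point) and range (line) over 16 monkeys, for the immediate-early and NR4A genes (red) and α-cell markers (grey), on a linear axis with a dotted line at 1. Among the red genes NR4A1 and NR4A2 have short ranges (0.130 to 0.316 and 0.0790 to 0.185), and the range of JUNB crosses 1. IER2 and NR4A3, with median ratios of 0, are not shown.

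In δ-cells, which secrete somatostatin, 6 of the 9 genes passed the test for a lower level than in α-cells, against 19% of all genes tested. NR4A1 had the largest difference among the genes with over 100 CPM in α-cells, at -1.86 on the log2 scale (SE 0.16, edgeR adjusted p = 1.91e-13), and was lower in 11 of 11 monkeys. NR4A2 differed by -1.18 (SE 0.25, edgeR adjusted p = 0.000368), FOSB by -1.25 (SE 0.32, edgeR adjusted p = 0.00401) and FOS by -0.81 (SE 0.19, edgeR adjusted p = 0.00131), the last in 9 of 11 monkeys. EGR1 (-0.80, SE 0.20, edgeR adjusted p = 0.00357) and NR4A3 lost their calls with DESeq2 (adjusted p = 0.0615 and 0.0585). ATF3 (-0.94, SE 0.55) and JUNB (-0.66, SE 0.53) did not pass the test.

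Against β-cells, 5 of the 9 genes passed the test for a higher level in δ-cells, against 4.96% of all genes tested. FOS was higher in 11 of 11 monkeys with a log2 difference of 1.46 (SE 0.19, edgeR adjusted p = 3.83e-08), NR4A2 was 1.83 higher (SE 0.24, edgeR adjusted p = 1.06e-07) and EGR1 1.19 higher (SE 0.20, edgeR adjusted p = 1.59e-05). The calls of FOSB (1.04, edgeR adjusted p = 0.0229) and NR4A1 (0.46, edgeR adjusted p = 0.0286) were lost without OF2, YF3 or YF4, with limma on mean log values, with over 2000 genes and 20000 UMIs per cell and with scaling to spike-ins, under which NR4A1 was 0.18 lower in δ-cells. NR4A1 also lost its call without YM1 or YM3 and with thinned cells (0.15, edgeR adjusted p = 0.640). The sum of 10 acinar enzyme markers was 68.4 to 1125 CPM in δ-cells (median 405). Its medians were 8.86 CPM in α-cells, with 3624 CPM in 1 monkey, 3.32 CPM in β-cells and 7.04 CPM in PP-cells. In δ-cells it was nearly all 1 gene, CPB1, at 543 CPM over the pooled cells, with the next, PNLIP, at 9.51 CPM. The part of this signal in the δ-cell values was not tested.

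In PP-cells, which secrete pancreatic polypeptide, the share of genes called higher than in α-cells was 1.48% and the share called lower 4.84%. Of the 9 genes, FOSB was called higher and NR4A3, with 0 UMIs in PP-cells, lower, the latter not without OF2 (adjusted p = 0.0687). FOS was higher in 5 of 6 monkeys at 0.67 on the log2 scale (SE 0.24, edgeR adjusted p = 0.0801), EGR1 in 5 of 6 at 0.55 (SE 0.25, edgeR adjusted p = 0.182) and ATF3 in 3 of 6 at 1.92 (SE 0.71, edgeR adjusted p = 0.0918). These 3 did not pass the test in the fit as planned, and DESeq2 called all 3 (adjusted p = 0.00896, 0.0400 and 0.00819). Against β-cells, 7 of the 9 genes were higher in PP-cells, against 6.08% of all genes tested. FOSB stood 4.80 higher on the log2 scale (SE 0.38, edgeR adjusted p = 4.94e-14), NR4A2 3.33 higher (SE 0.29) and FOS 2.94 higher (SE 0.23), each in 6 of 6 monkeys. The call of IER2 in this comparison was lost without OM2 (adjusted p = 0.254).

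Against δ-cells, 6 of the 9 genes were higher in PP-cells, against 5.55% of all genes tested, with 5 monkeys that held both types. FOSB was 3.76 higher (SE 0.42, edgeR adjusted p = 4.63e-09) and NR4A1 1.85 higher (SE 0.20, edgeR adjusted p = 1.54e-09). NR4A2 was 1.50 higher (SE 0.32), FOS 1.47 higher (SE 0.25) and EGR1 1.35 higher (SE 0.28). The call of ATF3 (2.85, SE 0.78, edgeR adjusted p = 0.0129) was lost without OM2, OM4 or YM4 (adjusted p = 0.0914, 0.0808 and 0.0705) and with the highest hormone at least 2 times the next (adjusted p = 0.116). By median level the order was thus PP, α, δ, β for FOS, FOSB and EGR1, with PP and α not separated by the test for FOS and EGR1. For NR4A2 the medians, over 6 PP- and 16 α-cell monkeys, gave the same order, whereas the median ratio of PP- to α-cells within monkeys was under 1, and the test did not separate the 2 types. For NR4A1 it was α and PP, not separated by the test, then δ, then β, where the higher level in δ- than in β-cells was called in 16 of 25 alternative settings and turned lower with spike-in scaling.

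The median log2 difference of the 9 genes was -2.32 between β- and α-cells, where that of all genes tested was -0.20. It was -1.18 between δ- and α-cells (all genes -0.57) and 0.55 between PP- and α-cells (all genes -0.49). The shift of all genes depended on the scaling, at -0.98 with spike-ins and 0.21 with DESeq2 for δ- against α-cells, and at -0.87 and 0.30 for PP- against α-cells. The 24 α-cells, 4 β-cells and 1 PP-cell with over 1% of UMIs in acinar, ductal, stellate, endothelial or immune markers held more FOS (2740 CPM, elsewhere 1036), NR4A1 (1260, elsewhere 631) and JUNB (183, elsewhere 11.7). The summed immune markers had medians of 108 CPM in α- and 33.8 CPM in β-cells, of which KIT alone was 70.3 and 10.4 CPM over the pooled cells, and CD3E was at 0 in both. Stellate markers had medians of 31.8 and 11.1 CPM, endothelial markers 14.7 and 5.95 CPM and ductal markers 51.0 and 32.8 CPM, with CFTR and SOX9 at 0 in β-cells. In PP-cells the medians were 67.5 CPM for immune, 19.0 for stellate, 4.51 for endothelial and 51.7 for ductal markers, with stellate markers at 1040 CPM in 1 monkey. Without the 29 cells none of the calls between types named above was lost.

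Genes of the same early programme were read from fixed lists. Of 19 other early transcription factors tested, 10 were lower in β- than in α-cells and none higher, with a median log2 difference of -1.53, where 18.1% of all genes tested were lower and 7.54% higher. They included the EGR1 relatives EGR4 (-2.80, SE 0.33), EGR3 (-2.78, SE 0.37) and EGR2 (-2.87, SE 0.39) and the AP-1 subunit FOSL2 (-2.75, SE 0.33). Of the 10 calls, 7 were kept with scaling to spike-ins and 8 with DESeq2. Of 23 early feedback and effector genes, 12 were lower and none higher, with a median of -1.18. The antiproliferative factor BTG2 was among them (edgeR adjusted p = 1.37e-12), the MAP kinase phosphatase DUSP1 fell by 2.38 (SE 0.23), BTG1, a relative of BTG2, by 1.48 (SE 0.16) and the stress sensor GADD45B by 1.66 (SE 0.21). Of the 32 upstream activators tested, kinases and factors that act before the early genes, 6 were lower, a share near that of all genes, and 1, the kinase CAMK4 (3.84), was higher, with a median of -0.45. Those lower included the kinases RPS6KA1 (-2.64, SE 0.32), CAMK2B (-1.18, SE 0.22) and MAP2K2 (-0.91, SE 0.19) and the factor SRF (-1.33, SE 0.30). Of 10 heat shock genes, 2 were lower, again a share near that of all genes, UBB (-0.41, SE 0.08) and HSPB1 (-0.93, SE 0.26), and neither call was kept with scaling to spike-ins.

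The other types followed these lists in part. In δ- against α-cells, 13 of 19 early transcription factors were lower, among them EGR4 (-3.08, SE 0.45) and CSRNP1 (-2.47, SE 0.51), together with 10 of 23 feedback genes, 8 of 32 upstream activators and 3 of 10 heat shock genes, where 19% of all genes were lower and 3.82% higher. The secreted factor CTGF (1.50) and the chaperone HSP90AA1 (0.43, SE 0.13) were higher, and neither call was kept with spike-in scaling (adjusted p = 0.0644 for CTGF, and 0.01 with adjusted p = 0.958 for HSP90AA1). CTGF and CAMK4 were named after their values were seen. In PP- against α-cells none of 19 early transcription factors was called higher, as FOSB was. Of these 3 were lower, among them EGR4 (-2.13, SE 0.53) and FOSL2 (-1.72, SE 0.51), where 4.84% of all genes were lower. The signalling inhibitor RGS2 (1.32, SE 0.30) and the phosphatase subunit PPP1R15A (1.47, SE 0.38) were higher and the mRNA decay factor ZFP36L1 (-2.42, SE 0.64) lower among 23 feedback genes, PPP1R15A not with spike-in scaling (adjusted p = 0.0585). Of 32 upstream activators 3 were lower, among them RPS6KA1 (-1.99, SE 0.53) and CAMK2B (-1.23, SE 0.35). Of 10 heat shock genes 3 were higher in PP-cells, HSPB1 (1.89, SE 0.37), HSP90AA1 (1.07, SE 0.17) and DNAJB4 (1.55, SE 0.38), where 1.48% of all genes were higher. The other heat shock genes were not called, and the relation of these transcripts to FOSB was not tested.

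Against δ-cells, PP-cells had higher levels of 9 of 19 early transcription factors, 9 of 23 feedback genes and 6 of 10 heat shock genes, where 5.55% of all genes were higher. The lowest adjusted p in each list belonged to EGR3 (2.90, SE 0.60), DUSP1 (2.20, SE 0.37) and HSPB1 (1.98, SE 0.41), although other called genes had larger differences. Against β-cells the counts were 5 of 19, 10 of 23 and 5 of 10, where 6.08% of all genes were higher, and the lowest adjusted p belonged to EGR3 (3.30, SE 0.54), BTG2 (2.52, SE 0.26) and HSPB1 (2.83, SE 0.36). With scaling to spike-ins 4, 8 and 2 of these calls against β-cells were kept, and all of those against δ-cells. No gene of these 3 lists was lower. Upstream activators were split, with 2 higher and 2 lower against β-cells (9.57% of all genes were lower) and 2 higher and 1 lower against δ-cells (3.31% lower). In δ- against β-cells, 5 of 23 feedback genes were higher, among them BTG2 (1.09, SE 0.21), against 4.96% of all genes. With scaling to spike-ins 1 of these 5 was kept, and BTG2 was not (0.47, adjusted p = 0.0894). Of 19 early transcription factors 2 were lower, among them BHLHE40 (-1.94, SE 0.56), where 13.1% of all genes were lower. Of the upstream activators 1 was higher and 2 lower, and of the heat shock genes 2 were higher and 2 lower. The higher calls of HSP90AA1 and UBB there, and of UBB in PP- against β-cells, turned to slightly lower values (-0.04, -0.30 and -0.07) with scaling to spike-ins.

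The next question was how far these genes differed from animal to animal, apart from age. In α-cells the lowest and highest monkeys differed 5.23-fold for FOS (OM3 and OM4), 7.66-fold for EGR1 (OM3 and YM3), 5.75-fold for NR4A1 (OM1 and YM3) and 7.92-fold for NR4A2 (YF1 and YM3). For FOSB they differed 44.0-fold (OM1 and YF2) and for ATF3 37.2-fold (OM3 and YM3). The extremes were often the same animals: OM1 and OM3 held 435 and 407 CPM of FOS and 5.98 and 7.30 CPM of FOSB, whereas OM4, YF2 and YM3 held 2131, 2116 and 2017 CPM of FOS and 256, 263 and 191 CPM of FOSB. Both extremes of FOS were thus found among old males. The median UMI count per α-cell was 56955.5 in OM1, 75930 in OM3, 64690 in OM4, 55890 in YF2 and 40069.5 in YM3, the last being the shallowest of the 16 monkeys.

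For the more abundant genes the 4 libraries of a monkey lay close together. The highest library exceeded the lowest of the same monkey by a median of 1.34-fold for FOS (1.03 to 1.86), 1.29-fold for EGR1 (1.12 to 2.39), 1.41-fold for NR4A1 (1.14 to 2.07), 1.69-fold for NR4A2 (1.28 to 2.86) and 1.66-fold for FOSB (1.13 to 7.22). They lay farther apart for JUNB (median 2.89-fold, 1.24 to 35.0), ATF3 (3.65-fold, 1.58 to 46.8) and NR4A3 (8.94-fold, 2.83 to 33.9). Tested against this spread between libraries, 8 of the 9 genes differed between monkeys, against 39% of all genes tested. The F values were 49.3 for FOS, 47.2 for EGR1, 41.8 for FOSB, 40.0 for NR4A1 and 23.8 for NR4A2 (edgeR quasi-likelihood, adjusted p = 2.73e-25 for FOS), then 7.55 for ATF3, 6.86 for JUNB and 2.84 for IER2. NR4A3 did not pass (F 1.03, edgeR adjusted p = 0.562). Libraries are repeat samplings of a monkey on one day, so these tests set animals and days together against the spread of libraries. The number of the library, which recurs in every monkey, was related to none of the 9 genes and to 0% of all genes tested by edgeR (495 genes at an unadjusted p under 0.05, and 0 called by DESeq2).

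**Figure D3:**
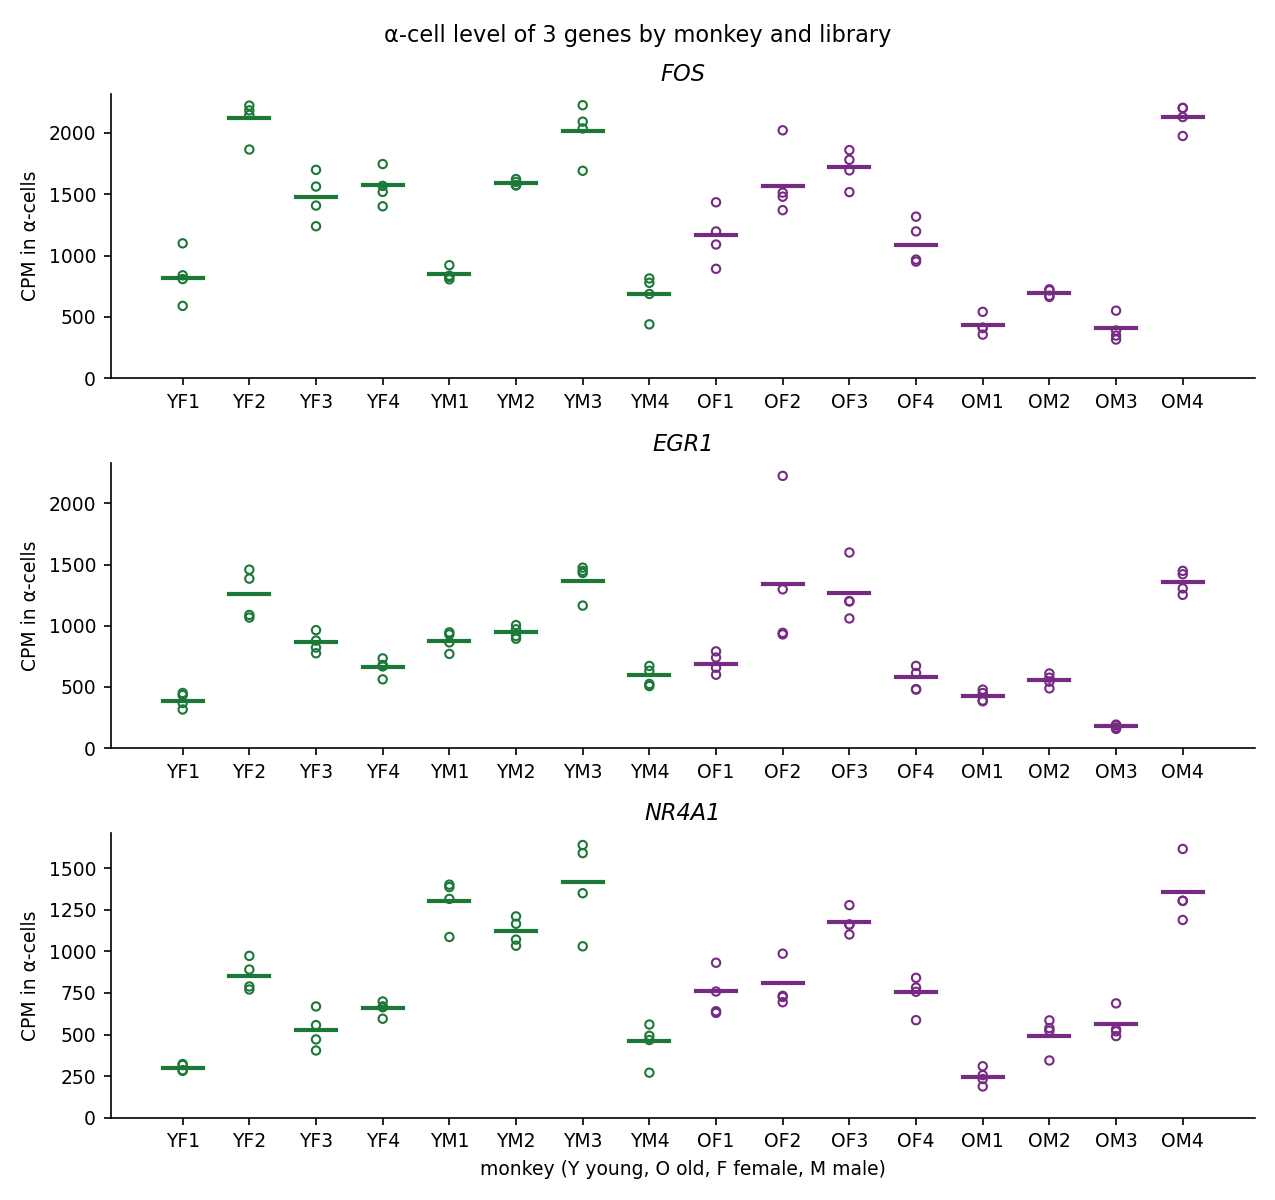
CPM of FOS, EGR1 and NR4A1 in the α-cells of each of the 16 monkeys, as the level over all its α-cells (bar) and in each of its 4 libraries (circles), where green is young and purple old and the monkey codes give age (Y, O), sex (F, M) and number. Library values of a monkey mostly lie near its level, 1 EGR1 library of OF2 at 2226 CPM being the farthest off, while monkeys such as OM3 and OM4 differ 5.23-fold for FOS.

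The listed genes of the same programme were tested in the same way, where 39% of all genes passed. 18 of 23 feedback genes passed, with F values of 45.5 for BTG2, 37.5 for GADD45B and 34.7 for RGS2, and 14 of 17 early transcription factors, with 16.5 for EGR4 and 16.1 for FOSL2. Of the heat shock genes 9 of 10 passed, with 36.3 for HSP90AA1 and 28.2 for HSPB1, and of the upstream activators 8 of 31, with 4.49 for PRKACB, a catalytic subunit of protein kinase A. Heat shock transcripts thus varied over the same monkeys and days as the early genes, and their relation across monkeys was not tested.

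When the variance of log2(CPM/10 + 1) over thinned α-cells was split into parts between monkeys, between libraries of a monkey and between cells of a library, the part between monkeys was 35.1% for EGR1, 31.3% for FOS, 24.4% for NR4A1 and 20.7% for FOSB. Over all 13486 genes its median was 0.477%, and 50 of these genes had a larger part between monkeys than NR4A1. The part between libraries was 1.73% or less in each of these genes, and the rest, 63.7% to 77.8%, lay between cells. NR4A2 (8.68%), ATF3 (5.76%) and JUNB (3.86%) had less between monkeys, and NR4A3 had 0%. Without thinning the part between monkeys was 41.8% for EGR1, 34.8% for FOS, 31.8% for FOSB and 30.1% for NR4A1, and it was 10.2% for ATF3, 9.68% for JUNB and 1.05% for the median of all genes. Low levels leave more counting error in the cell part, so the shares of genes at different levels are not strictly comparable.

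**Figure D4:**
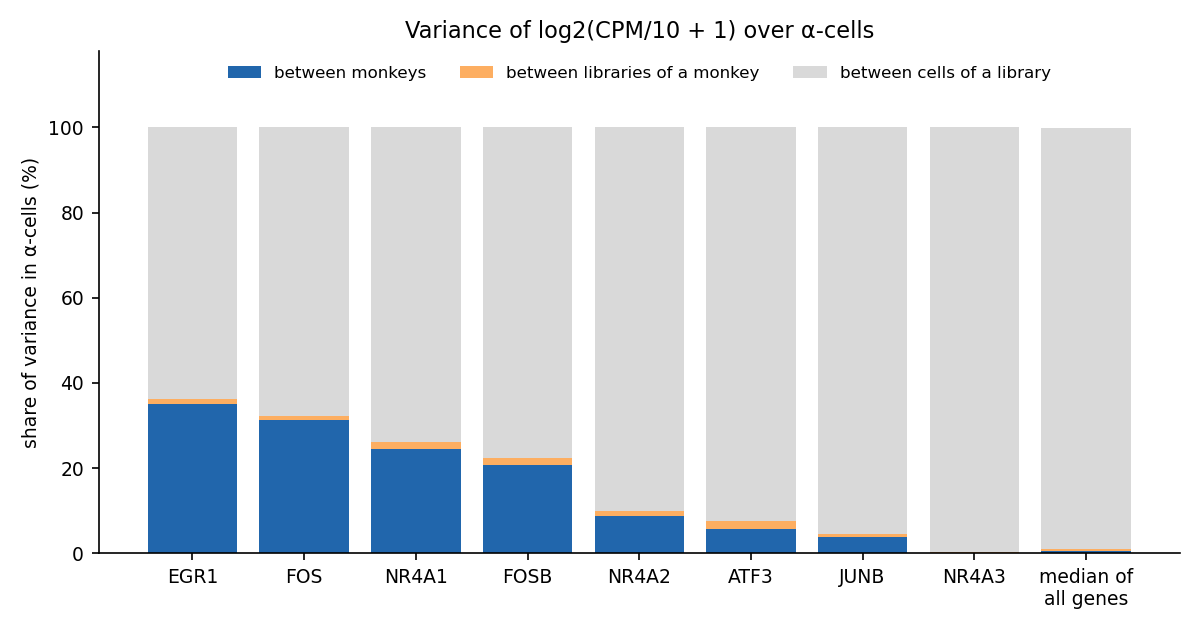
Share of the variance of log2(CPM/10 + 1) over α-cells thinned to 10000 UMIs that lay between monkeys, between libraries of a monkey and between cells of a library, as stacked bars in percent. EGR1 and FOS have 35.1% and 31.3% between monkeys, where the median of all genes has 0.477%.

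Within a monkey the molecules were unevenly shared among α-cells. In thinned cells the tenth of cells with most FOS UMIs held a median over monkeys of 30.9% of all FOS UMIs (22.5% to 51.0%). The same share was 27.0% for EGR1 and 31.7% for NR4A1. It was higher for NR4A2 at 54.9% (45.2% to 68.9%) and for FOSB at 55.3%. This share rises by counting alone as the UMIs per cell fall. The median of the mean thinned count was 13.8 UMIs for FOS, 1.70 for NR4A2 and 0.960 for FOSB, so the share does not rank these genes by unevenness. The share of thinned α-cells with a FOS UMI ran from 72.8% to 100% over the 16 monkeys with a median of 97.9%. That with a FOSB UMI ran from 3.36% to 74.5% with a median of 40.3%. The ratio of variance to mean of the thinned counts was 8.60 for FOS, 5.53 for NR4A1, 4.94 for NR4A2 and 4.24 for EGR1 as medians over monkeys, where the median of all genes was 2.13. It was 3.50 for ATF3 and 3.08 for FOSB, and below the median of all genes for JUNB and NR4A3, at 1.58 each. This ratio also depends on the mean count, and the genes behind the median were not matched for level.

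FOS, EGR1, NR4A1 and NR4A2 were positively correlated from cell to cell. Over the thinned α-cells of a monkey (175 to 361 cells), after centring in each library, FOS correlated with EGR1 at a median r of 0.268 (0.109 to 0.393 over 16 monkeys) and with NR4A1 at 0.227 (0.0635 to 0.468). EGR1 correlated with NR4A1 at 0.241, FOS with FOSB and with NR4A2 at 0.184 each, and NR4A1 with NR4A2 at 0.179, all positive in 16 of 16 monkeys. These correlations are of sparse counts and share the depth of the cell, although FOS in thinned cells correlated with the cell's full UMI count at a median of only 0.07. Some pairs with a scarcer gene were close to uncorrelated, such as JUNB with ATF3 (0.03, positive in 10 of 16 monkeys), ATF3 with NR4A2 (0.04, 9 of 16), FOSB with NR4A3 (0.04, 11 of 16) and NR4A3 with ATF3 and JUNB (-0.02 for both).

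Of 8049 other genes with at least 10 CPM in α-cells, those most like the mean of these genes were BTG2 (median r 0.320 over 16 monkeys), the unnamed gene ENSMFAG00000000455 (0.286), DUSP1 (0.251) and a second unnamed gene, ENSMFAG00000042314 (0.230). NPAS4, an activity-dependent neuronal transcription factor, followed at 0.206, then 1 more unnamed gene (0.205), the small G protein RASD1 (0.186), RGS2 (0.185), EGR4 (0.184) and ZFP36, an mRNA decay factor (0.176). The median of all genes compared was 0.00908. FOS itself reached 0.347 with the mean of the others, EGR1 0.302, NR4A1 0.282, NR4A2 0.226 and FOSB 0.207, whereas JUNB (0.121), ATF3 (0.105) and NR4A3 (0.0796) were weaker. The list medians were 0.0971 for 11 early transcription factors, 0.0814 for 17 feedback genes, 0.0773 for 10 heat shock genes and 0.0146 for 23 upstream activators.

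**Figure D5:**
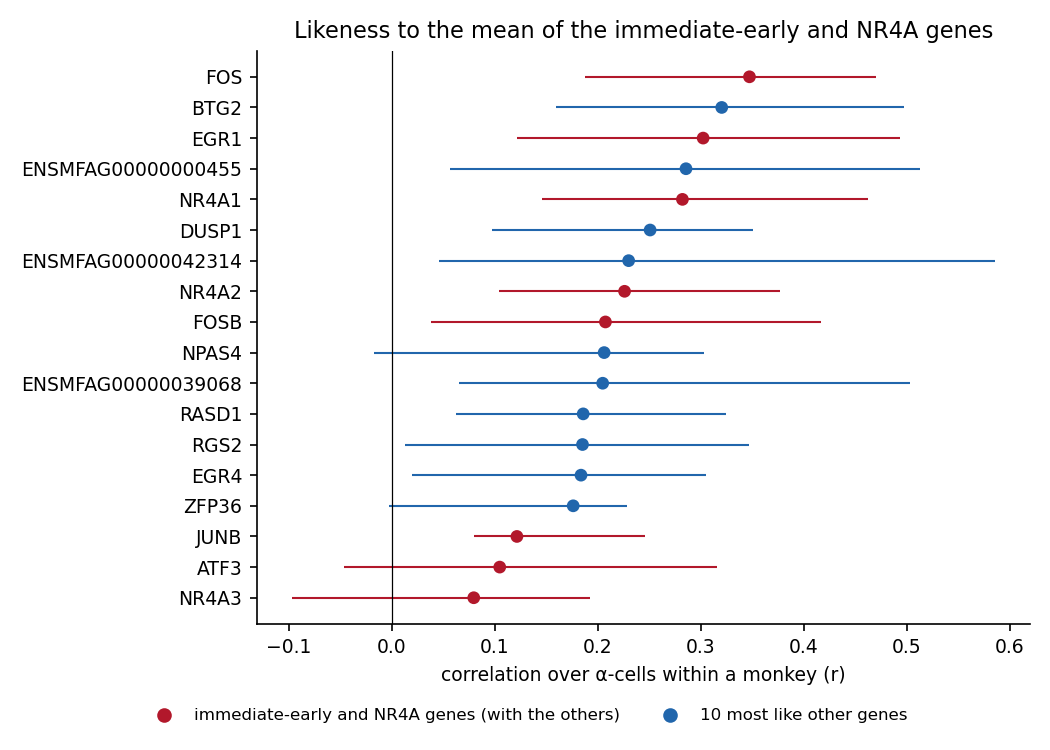
Correlation over α-cells within a monkey with the mean of the immediate-early and NR4A genes, as the median (point) and range (line) over 16 monkeys, for the genes themselves (red, with the mean of the others) and the 10 most like other genes (blue). FOS stands at 0.347 and BTG2 at 0.320, and all medians shown are above 0. IER2, with a median of 0, is not shown.

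The comparison of old with young monkeys asked whether the early genes shift with age. None of the 8 genes tested in α-cells, 7 in β-cells or 7 in δ-cells passed the test, against 0%, 0.045% and 0% of all genes (0 of 13486, 5 of 11101 and 0 of 7405 by edgeR). At an unadjusted p under 0.05 there were 920, 613 and 289 of all genes and none of the genes followed here, and DESeq2 called 33, 41 and 4 genes, none of them among the 9. In PP-cells only 2 young monkeys had 5 cells or more and no age test was run. No age call appeared for any of these genes under any alternative tried, including leaving out each monkey in turn.

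In α-cells FOS ran from 683 to 2116 CPM in young monkeys (median 1522) and from 407 to 2131 CPM in old ones (median 1125). The log2 difference was -0.34 (SE 0.32, edgeR adjusted p = 0.876). The old animals held both extremes, and the groups overlapped over nearly their whole ranges. EGR1 ran from 384 to 1369 CPM (median 872) in young and from 179 to 1361 CPM (median 634) in old monkeys, a log2 difference of -0.17 (SE 0.36). NR4A1 had medians of 756 and 761 CPM (-0.10, SE 0.34) and NR4A2 of 174 and 131 CPM (-0.25, SE 0.40).

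The less abundant genes had larger differences and larger errors. JUNB in α-cells ran from 5.79 to 39.4 CPM in young (median 18.4) and from 4.47 to 25.7 CPM in old monkeys (median 7.60), a log2 difference of -0.81 (SE 0.43, edgeR adjusted p = 0.769). ATF3 had medians of 33.4 and 17.2 CPM (-0.85, SE 0.56) and FOSB of 104 and 74.7 CPM (-0.52, SE 0.59). All of these ranges overlapped. The biological coefficient of variation between monkeys in α-cells was 0.450 for FOS, 0.487 for EGR1 and 0.783 for FOSB, where the median of all genes was 0.358. These values lay at percentiles 61.0, 64.5 and 82.8 of all genes. In β-cells the coefficient was 0.419 for FOS, 0.413 for NR4A1, 0.513 for EGR1 and 0.680 for FOSB, where the median of all genes was 0.475.

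In β-cells FOS had medians of 235 CPM in young and 279 CPM in old monkeys with a log2 difference of 0.00 (SE 0.30), and EGR1 differed by 0.02 (SE 0.37). JUNB differed by 0.84 (SE 0.69), opposite to its sign in α-cells. Of 425 JUNB UMIs in β-cells of old monkeys, 280 came from OF4, 119 of them from its highest cell. Without that cell the level in OF4 fell from 14.7 to 8.49 CPM. The test of the age difference itself between β- and α-cells called none of the 9 genes and 0% of all genes (920 at an unadjusted p under 0.05, and 9 by DESeq2). JUNB had the lowest unadjusted p there, with a difference of 1.78 (SE 0.65, unadjusted edgeR p = 0.0106, adjusted p = 0.715). NR4A3 (2.95, SE 1.30, edgeR adjusted p = 0.810) and IER2 (2.82, SE 2.18, edgeR adjusted p = 0.949) had larger differences, from 47 and 3 UMIs in all β-cells. FOS differed by 0.45 (SE 0.22, adjusted p = 0.834).

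The difference between males and females did not pass the test for any of these genes, with 0% of all genes called in both α- and β-cells by edgeR (783 and 444 at an unadjusted p under 0.05, and 47 and 29 by DESeq2). The interaction of age and sex called none of them either, against 0.00707% of genes in α-cells (1 of 14146) and 0% in β-cells (495 at an unadjusted p under 0.05, and 3 by DESeq2). NR4A2 had the lowest unadjusted p there. Its α-cell medians were 129 CPM in young females, 288 in young males, 207 in old females and 97.3 in old males, 4 monkeys each. The interaction was -1.87 on the log2 scale (SE 0.65, unadjusted edgeR p = 0.0102, adjusted p = 0.872) in α-cells and -1.63 (SE 0.72, adjusted p = 1.00) in β-cells of the same animals. NR4A1 followed in α-cells at -1.28 (SE 0.60, adjusted p = 0.877). These differences did not pass the correction.

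The spread from cell to cell, measured as the SD of log2(CPM/10 + 1) over thinned cells of a monkey, was compared between ages as well. None of 8 genes in α-cells and 7 in β-cells passed the limma test, against 0% and 0.018% of all genes (690 and 490 at an unadjusted p under 0.05). In α-cells the SD of FOS was 0.25 higher in old monkeys (SE 0.19, limma adjusted p = 0.954) and that of EGR1 0.24 higher (SE 0.19), whereas those of ATF3 (-0.36, SE 0.19) and FOSB (-0.34, SE 0.20) were lower. The mean levels of FOS, EGR1, ATF3 and FOSB were lower in old monkeys by the values given above, within error, and their part in the SD was not tested.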

How the data were processed

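The authors deposited one table of UMI counts per library, with genes in rows and cells in columns. As the study describes it, islets were isolated with collagenase and single cells picked by mouth pipette, reads were aligned with TopHat2 (2.0.12 per the labels) to the Macaca fascicularis 5.0 build, uniquely mapped reads were assigned to genes with HTSeq, and each UMI was counted once. The mapping-rate filter on cells that the study applied was not used here. Columns from other samples numbered 0. The 96 cell barcodes are a fixed set, 93 of which occur in all 64 libraries, and 0 cells had identical counts.

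Kept cells had over 800 genes and over 10000 UMIs, and 95 spike-in RNAs were left out of totals. Counts were summed per monkey and type (at least 5 cells) or, for animal differences, per library. The sums were tested with edgeR 4.0.16 (quasi-likelihood, TMM, filterByExpr, Benjamini-Hochberg over all genes tested, threshold 0.05) in R 4.3.3, with sex in age tests and monkey as a block in type tests. Cell-to-cell spread was tested with limma 3.58.1. DESeq2 1.42.0 was an alternative. For shares and correlations each cell was thinned to 10000 UMIs (seed 1), leaving out 45 shallower cells. Doublets were not called, and all fits were also run without cells above the 95th percentile of UMIs, with a stricter hormone rule (highest hormone at least 2 times the next, which leaves out 87 α-, 130 β-, 11 δ- and 16 PP-cells) and with other filters. The variance split and the tests of age in α-cells, PP- against α-cells, differences between monkeys and cell-to-cell spread were tried on simulated data. The other steps were not.

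The genes and lists were chosen with earlier results of these data known. Named genes were all members, up to 4 called genes per other list and comparison with the lowest adjusted p and a mean of at least 10 CPM, and the 10 most correlated genes. P-values between libraries measure technical spread. A floor or limit for a count of 0 uses 3 counts unless an exact interval is named, and covers counting error only. Gene names were used as the tables give them, and no genome coordinates were used. Of the fixed α-cell markers found in the tables, 1 is not reported here and is left out of the counts and medians of those markers.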

Additional observations from a re-analysis of the deposited data

Results flagged for a closer look

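In 59 groups of 4 to 8 monkeys (one gene, type and age each), 9 had 1 monkey far from the rest by Dixon's test, where chance flags about 1 in 20 groups. FOSB in β-cells of young monkeys was 72.3 CPM in YF2, the next being 34.3. YF2 had only 11 β-cells, 9 of them with a FOSB UMI, and held 62.8 CPM without its highest cell. NR4A2 in δ-cells of old monkeys was 22.6 CPM in OF1 (nearest 120 CPM). OF1 had 7 δ-cells with 16 NR4A2 UMIs in all, 12 of them from 1 cell. In δ-cells of young monkeys NR4A2 was 220 CPM in YM3 (nearest 102 CPM), where 43 of 103 UMIs came from 1 cell.

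The other flags rest on single cells or single molecules. NR4A3 in α-cells of old monkeys was 12.5 CPM in OF2, where 174 of 194 UMIs came from 1 cell, and 1.29 CPM without it. IER2 was 38.3 CPM in PP-cells of OM2 (8 UMIs in 1 of 5 cells) and 0.806 CPM in α-cells of OF3, where 19 of 20 UMIs came from 1 cell. IER2 was 0.169 CPM in β-cells of OM1 and 0.151 CPM in those of YM1, and NR4A3 was 0.408 CPM in β-cells of YM3, each from 1 UMI.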

How the results depend on the processing

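Of 3482 values of single genes under the alternatives, 3432 stayed on their side of the threshold (185 of these, not called in either setting, had the other sign), 20 gained and 29 lost significance, and NR4A1 in δ- against β-cells turned to -0.18 with scaling to spike-ins. The causes were not tested. PP- against α-cells gave 2 called genes, 4 with DESeq2 and 1 with thinned cells, and δ- against β-cells gave 5, with 3 under spike-in scaling and 3 with limma on mean log values. With each monkey left out in turn the counts ran from 8 to 9 for β- against α-cells, 6 to 6 for δ- against α-cells, 2 to 3 for PP- against α-cells, 3 to 6 for δ- against β-cells (3 without OF2, YF3 or YF4), 6 to 8 for PP- against β-cells, 5 to 7 for PP- against δ-cells and 7 to 8 between monkeys. They stayed at 0 for age, sex, age by sex, age by type, library number and spread. A replicate block of monkeys of the same sex and number called 0 of these genes by age in α-, β- and δ-cells and moved the all-gene count in α-cells from 0 to 3, in β-cells from 5 to 11 and in δ-cells from 0 to 1. The numbers do not pair the animals: correlations of same-numbered monkeys were -0.05 to 0.14, and 4 of 8 correlated best with their own number. Apart from the block and leaving out monkeys, counts of all genes that moved by over 1.5 times were, by age, 33 with DESeq2 in α-cells (0 as planned), in β-cells 41 with DESeq2, 21 with no filter, 10 with limma, 9 with spike-ins, 3 thinned and 3 without the deepest cells (5 as planned), and in δ-cells 4 with DESeq2, 3 with no filter, 3 with limma and 1 with stricter cells (0 as planned). By sex they were 47 with DESeq2 in α-cells and 29, 23 and 1 with DESeq2, no filter and limma in β-cells (0 as planned in both). Age by sex gave 11 with DESeq2 in α-cells (1 as planned) and 3 and 1 with DESeq2 and no filter in β-cells (0). Age by type gave 9 with DESeq2 and 6 thinned (0), library number 5 with no filter and 4 thinned (0), and β-cell spread 1 by variance over mean (2). Spike-in scaling gave 6113 genes for δ- against α-cells (3337), 2463 for PP- against α-cells (926), 6306 for δ- against β-cells (2639) and 4297 for PP- against β-cells (2292), and PP- against δ-cells gave 2104 with DESeq2, 2025 with limma and 736 thinned (1298). On leaving out 1 monkey, the age count of all genes in β-cells was 2 without YM1 or YM2, 3 without OM1, OM3 or YF3 and 8 without OM4, and that in δ-cells was 1 without YF4. The sex count was 1 without YF4 or YM3 in α-cells and 1 without OF3 and 2 without YM2 in β-cells. Age by sex gave 2 without YM2 in α-cells and 1 without OF1 or YM2 in β-cells, age by type 1 without OF1 or YF1, and library number 1 without YF4. PP- against α-cells gave 543 without YM4. The spread count was 1 without OM2 in α-cells, and in β-cells 1 without YF1 or YF4 and 0 without OF3, OF4, OM1, OM2, OM3, YF3, YM1 or YM2. The age test of PP-cells was not run. Mean CPM per cell moved 36 of 36 mean levels by under 1 SD, and 8 of the 10 most correlated genes stayed among the 10 without thinning. Depth limits JUNB, NR4A3 and IER2, and cell number limits PP-cells.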
